A study of Mus musculus with 6 samples.

Results

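The 48 genes described here encode lysosomal hydrolases, their activators, lysosomal membrane proteins, the receptors and the enzyme that sort hydrolases to the lysosome, and 3 transcription factors of the MiT/TFE family. They were chosen by symbol from the deposited count table, and all 48 were found among its 15458 rows. Messenger RNA was measured in Kupffer cells, macrophages that live in the liver sinusoids, after flow cytometric sorting from wild type C57BL/6 mice 18 days after implantation of Hepa1-6 cells, a mouse hepatoma line. In the KC_EV group (Hepa1-6_EV in the labels) the tumour cells carried an empty vector, and in the KC_Epo group (Hepa1-6_EpoOE) they overexpressed erythropoietin, the hormone that drives red cell formation. All mice of both groups bore tumours, so no library stands for a tumour-free liver. There were 3 libraries a group. Beyond a number for each sample the labels do not say whether animals were separate or pooled, so the p-values speak only of the spread among these 6 libraries.

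Lysosomes are acidic organelles that degrade what a cell takes up or turns over. In Kupffer cells they receive aged red cells, lipoproteins, bacteria and debris from the portal blood. Soluble hydrolases are made in the endoplasmic reticulum, tagged with mannose 6-phosphate and carried to the lysosome by receptors, and heavily glycosylated membrane proteins line the organelle from inside. Many of their genes share a promoter sequence called the CLEAR element, built around the E-box CACGTG, which TFEB, TFE3 and MITF bind.

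Depth ran from 23201076 to 33280754 counts per library, and members had between 217 and 192109 counts in a library. No KC_EV library had a count of Epo itself (0 in all 3), against 29, 44 and 21 counts in KC_Epo 1, 2 and 3. Levels are given in CPM, counts scaled to a common library size with TMM factors, which correct for depth and library composition but not for gene length. All 12 Kupffer cell markers on the list used here were detected in every library. Their summed level was 35919 to 39274 CPM across KC_EV and 50587 to 58318 CPM across KC_Epo. Of these markers 8 passed the test as higher, while Adgre1, which encodes the F4/80 antigen, and Lyz2, a macrophage lysozyme, passed as lower at log2 fold changes of -0.72 ± 0.11 and -0.78 ± 0.11 (SE). KC_Epo 1 stood apart by its hepatocyte markers, whose summed level was 22149, 6528 and 13291 CPM across KC_Epo 1 to 3 and 2862 to 3572 CPM across KC_EV. Of the 14 hepatocyte markers 10 passed as higher and 0 as lower, and none was at 0 counts in any library. The 12 sinusoidal endothelial markers, none at 0, summed to 5021 to 5872 CPM (KC_EV) and 2432 to 3293 CPM (KC_Epo), with 1 higher and 9 lower. All 7 erythroid markers passed as higher, with sums of 33.3 to 43.1 CPM (KC_EV) and 606 to 1108.5 CPM (KC_Epo). The part of these cells in the member values was not tested. In bulk libraries such as these, fewer cells of a type and less RNA per cell cannot be told apart.

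Most lysosomal genes were expressed at a higher level in KC_Epo. Of the 48 members, all of which passed the filter on low counts, 36 rose, 1 fell and 11 did not pass the edgeR quasi-likelihood test at an adjusted p of 0.05. Over all 13120 genes tested, 32.3% passed in either direction, 16.9% as higher and 15.4% as lower. The median log2 fold change of the members was 0.39, against -0.0045 for all genes tested. The rises were mostly modest, since 12 of the 36 exceeded 1.5-fold; 5.78% of all genes both passed as higher and exceeded that size. Values ran from -0.74 for Cd63 to 1.31 for Sort1. The 3 KC_Epo libraries lay above the 3 KC_EV libraries for 36 members and below them for 1, where 24.1% and 24.2% of all genes were separated in these ways. Of the 36 higher calls, 23 held under all 16 alternative analyses. The size of the count depends on the scaling: with library sizes alone, which moved the median of all genes to -0.16, 23 members were higher and 2 lower.

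**Figure D1:**
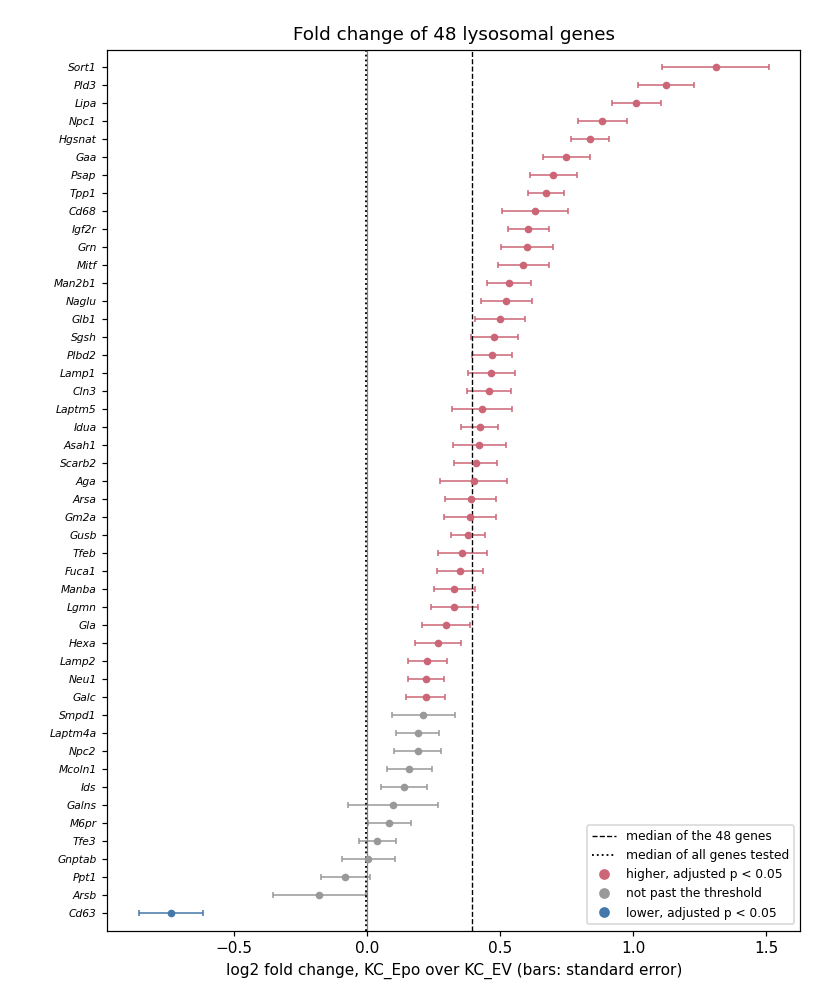
Log2 fold change of each of the 48 lysosomal genes between 3 KC_Epo and 3 KC_EV libraries (x axis), with standard errors as bars and genes in order of the value (y axis). The 36 genes called higher lie at 0.22 or above, 11 grey genes lie between -0.18 and 0.21, and Cd63 at -0.74 is the gene called lower; the dashed line marks the median of the 48 genes at 0.39 and the dotted line that of all genes tested at -0.0045.

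The rise was led in amount by a few abundant transcripts. The members together took 2.015 to 2.06% of all counts in KC_EV and 2.35 to 2.83% in KC_Epo, and their summed level went from 19345 ± 390.5 to 27291 ± 2896 CPM (SD, n = 3). Of this summed rise of 7946 CPM, Psap supplied 26.8%, Grn 15.9% and Lgmn 8.29%. Without Psap and Grn the sum of the others was still 1.34-fold higher. Per kilobase of exon in GENCODE M21, Lgmn, Psap and Grn stood highest in KC_EV at 1279, 1245 and 1045 CPM per kilobase, and Sort1 lowest at 2.13.

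The E-box CACGTG was searched for in the promoters of these genes. RefSeq promoters (build GRCm38.p6, from 250 bases before to 50 bases after the gene start) were at hand for 40 of the 48 members, with 48 promoters in all. CACGTG, a palindrome that reads the same on both strands, stood in 11 of these 48 promoters, or 22.9%, and in 7.15% of all 32851 mouse promoters of that length. The longer palindrome TCACGTGA, which contains CACGTG, stood in 8.33% and 0.974%. Counted by gene, over the 10245 tested genes with a promoter, CACGTG stood in 27.5% of the 40 members and 11.2% of the tested genes, and TCACGTGA in 10% and 2.09%. Another sequence, CATGTG, searched for on both strands of the same window, stood in 22.5% and 10.7%. A higher share among members was thus seen for CATGTG as well. Whether the same factors bind CATGTG was not examined, so it is no neutral control and cannot decide whether the share is particular to CACGTG. No statistical test was made of these shares, and a match is a description of letters, not a site shown to be bound. The 11 members with a CACGTG were Arsa, Cln3, Gaa, Gla, Glb1, Igf2r, Lamp1, Lgmn, Mcoln1, Naglu and Sgsh. They held 18 copies, 13 of them within 100 bases before the gene start, and each copy had a T before it or an A after it. The copy nearest to the gene start in each of the 11 promoters is shown because it is what these genes share; capitals mark the E-box, and sequences run 5′ to 3′ along the gene strand with 10 bases on both sides. They lie in GRCm38.p6 upstream of the gene start, Arsa at chr15:89477425-89477450 (minus strand, 16 bases before the start), Cln3 at chr7:126583342-126583367 (minus strand, 121 bases before the start), Gaa at chr11:119267813-119267838 (plus strand, 140 bases before the start) and Gla at chrX:134601184-134601209 (minus strand, 194 bases before the start). Those of the next genes are Glb1 at chr9:114401020-114401045 (plus strand, 48 bases before the start), Igf2r at chr17:12769698-12769723 (minus strand, 7 bases before the start), Lamp1 at chr8:13159136-13159161 (plus strand, 15 bases before the start) and Lgmn at chr12:102439126-102439151 (minus strand, 49 bases before the start). The last are Mcoln1 at chr8:3500464-3500489 (plus strand, 45 bases before the start), Naglu at chr11:101070011-101070036 (plus strand, 73 bases before the start) and Sgsh at chr11:119355524-119355549 (minus strand, 29 bases before the start). The sequences are:
Arsa: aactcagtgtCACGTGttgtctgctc
Cln3: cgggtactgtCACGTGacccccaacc
Gaa: tctgtgcgatCACGTGtttgactctg
Gla: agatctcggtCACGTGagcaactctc
Glb1: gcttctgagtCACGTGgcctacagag
Igf2r: cgactcaggtCACGTGacgctccggg
Lamp1: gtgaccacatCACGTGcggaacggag
Lgmn: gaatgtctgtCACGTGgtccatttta
Mcoln1: gcgccccgctCACGTGaccgcggcgc
Naglu: accttcaggtCACGTGgcccgaggtc
Sgsh: gcctgccgtgCACGTGaccgtgggga

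Lamp1 and Igf2r show how densely such copies can stand. The Lamp1 promoter (chr8:13158911-13159210, plus strand) has 4 copies, at 61, 45, 28 and 15 bases before the start, and the Igf2r promoter (chr17:12769657-12769956, minus strand) has 2, at 48 and 7 bases. Both are printed whole because the copies stand close together next to the gene start; capitals again mark CACGTG:
Lamp1: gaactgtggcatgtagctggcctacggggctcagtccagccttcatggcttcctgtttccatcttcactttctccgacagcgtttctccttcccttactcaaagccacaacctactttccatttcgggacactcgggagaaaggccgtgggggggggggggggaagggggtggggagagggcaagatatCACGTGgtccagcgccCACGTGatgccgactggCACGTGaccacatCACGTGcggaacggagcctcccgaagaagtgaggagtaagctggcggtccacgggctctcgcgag
Igf2r: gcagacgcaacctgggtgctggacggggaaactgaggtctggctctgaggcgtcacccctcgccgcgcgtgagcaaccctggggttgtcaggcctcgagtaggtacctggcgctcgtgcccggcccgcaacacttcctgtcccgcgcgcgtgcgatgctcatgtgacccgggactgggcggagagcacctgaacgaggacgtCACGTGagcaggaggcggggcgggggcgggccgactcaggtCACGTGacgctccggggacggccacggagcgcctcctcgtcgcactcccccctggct

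Sort1, Npc1 and Hgsnat, which are among the members that rose most, were not among the 40 genes with a promoter at hand. Of the 11 members with CACGTG, 10 rose and 0 fell, with a median log2 fold change of 0.47 and a range of 0.16 to 0.75. Of the 29 members whose promoters lack it, 20 rose and 1 fell, with a median of 0.35 and a range of -0.74 to 1.12. Pld3 and Lipa, with the largest rises among genes whose promoter was at hand, have no CACGTG in the window, which says only that these letters are not there. Across the tested genes with a promoter, 20.7% of the 1152 genes with CACGTG were called higher and 12.5% lower, against 16.5% and 15.3% of genes without it. With CATGTG 20.3% were called higher and 15.7% lower, against 16.6% and 14.9% of genes without it. For the 214 tested genes with TCACGTGA the shares were 25.7% higher and 9.35% lower, against 16.8% and 15.1% of genes without it. Among the members, those with TCACGTGA were too few to show or exclude such a difference. Of the 4 with TCACGTGA 3 rose, and of the 36 without it 27 rose and 1 fell, with median log2 fold changes of 0.378 and 0.382.

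**Figure D2:**
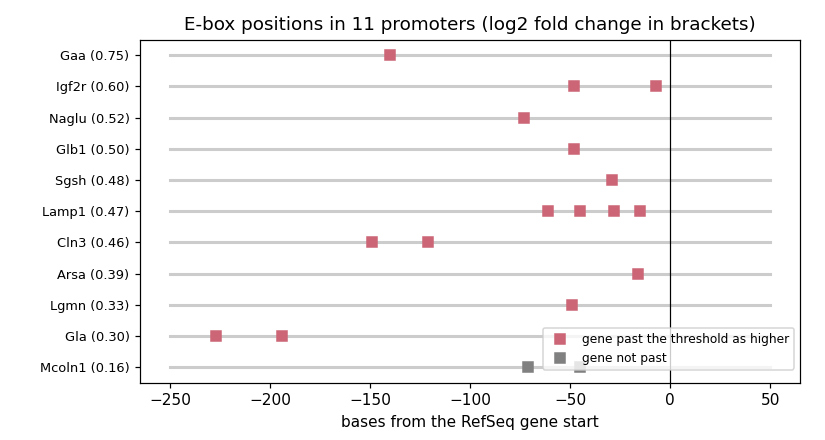
Position of each CACGTG in the 11 lysosomal gene promoters that hold it, in bases from the RefSeq gene start (x axis, the grey bar being the 300-base window), with the log2 fold change of the gene in brackets beside its name (y axis). The 4 copies in Lamp1 lie within 61 bases before the start, and Mcoln1, in grey, is the gene of the 11 that did not pass the test.

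Among the membrane proteins 7 of 10 rose and 1 fell. Npc1, the transporter that moves cholesterol out of the lysosome, was at 81.8, 70.3 and 64.3 CPM across KC_EV 1 to 3 and at 142, 128 and 129 CPM across KC_Epo 1 to 3. All KC_Epo libraries were well above all KC_EV libraries, and the log2 change was 0.88 ± 0.09 (SE, edgeR adjusted p = 2.56e-05). Cd68, a macrophage glycoprotein of late endosomes and lysosomes, was at 679, 603 and 663 CPM across KC_EV and at 814, 1190 and 1006 CPM across KC_Epo. The groups did not overlap, but KC_Epo 1 stood closer to KC_EV than KC_Epo 2 did; the log2 fold change was 0.63 ± 0.12 (adjusted p = 0.00407).

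Lamp1 and Lamp2 are the most studied proteins of the lysosomal membrane and shield it from the hydrolases inside. Lamp1 was at 1338, 1246 and 1284 CPM across KC_EV and at 1579, 1966 and 1795 CPM across KC_Epo, a log2 change of 0.47 ± 0.09 (edgeR adjusted p = 0.00193). Lamp2, whose product also serves in chaperone-mediated autophagy, was at 563, 519.9 and 503 CPM across KC_EV and at 648, 592 and 615 CPM across KC_Epo. The groups were separate for both genes, with a smaller gap for Lamp2, where the log2 fold change was 0.23 ± 0.07 (adjusted p = 0.0356). That call was lost without KC_EV 2, KC_EV 3 or KC_Epo 3 (adjusted p = 0.121, 0.152 and 0.111), with library sizes alone (0.07, adjusted p = 0.479) and with upper-quartile factors (0.16, adjusted p = 0.116). Cln3, a membrane protein mutated in juvenile Batten disease, was at 125, 138 and 156 CPM across KC_EV and 191, 193 and 191 CPM across KC_Epo, at 0.46 ± 0.08. The KC_Epo libraries were nearly equal for this gene. In GENCODE M21, 13.2% of the exon bases of Cln3 overlap Apobr on the opposite strand, and whether the authors' counting used strand is not given in the sources used here.

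Laptm5, a lysosomal protein of blood cells, rose by 0.43 ± 0.11 and Scarb2, which carries glucocerebrosidase to the lysosome, by 0.41 ± 0.08. Laptm5 lost its call without KC_EV 1 or KC_EV 2 (adjusted p = 0.0576 and 0.0577) and with library sizes alone (0.27, adjusted p = 0.0666). Laptm4a, its relative, and Mcoln1, a calcium channel of the lysosomal membrane, did not pass, at 0.19 ± 0.08 and 0.16 ± 0.08 (edgeR adjusted p = 0.0862 and 0.169). Without KC_Epo 1, the library with the highest hepatocyte markers, both passed at 0.25 and 0.23 (adjusted p = 0.0162 and 0.0363).

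Cd63, a tetraspanin of late endosomes and exosomes, was the member that fell. It was at 20.5, 23.5 and 18.9 CPM across KC_EV and at 13.2, 11.7 and 12.8 CPM across KC_Epo. Every KC_Epo library was below every KC_EV library, by -0.74 ± 0.12 on the log2 scale (SE, edgeR adjusted p = 0.00074), a value that stayed between -0.90 and -0.65 under all 16 alternatives. Endothelial markers were lower in the same libraries, by the sums given above, and stellate cell markers had summed levels of 109 to 120.4 CPM across KC_EV and 28.2 to 63.5 CPM across KC_Epo, with 3 of 7 lower and none at 0 counts; their part in this result was not tested. A near copy, Cd63-ps, shares 98.5% identity over 812 bases with Cd63 in GENCODE M21, so reads can be shared between them and the single value is uncertain.

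Of the 14 genes for lipid and sphingolipid breakdown, 11 rose and 0 fell. Lipa, lysosomal acid lipase, which frees cholesterol and fatty acids from lipoprotein esters, was at 327, 291 and 301 CPM across KC_EV and 545, 698 and 609 CPM across KC_Epo. This was a doubling with no overlap between groups, at 1.01 ± 0.09 (SE, edgeR adjusted p = 1.08e-05). Psap, the precursor of the saposins that help hydrolases reach their lipids, was at 3359, 3395 and 3492 CPM across KC_EV and 5045, 6182 and 5408 CPM across KC_Epo, at 0.70 ± 0.09 (adjusted p = 0.000123). The KC_EV libraries of this gene lay close together and all KC_Epo libraries far above them.

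Plbd2, a phospholipase B-like protein, was at 131, 138 and 143 CPM across KC_EV and 179, 205 and 187 CPM across KC_Epo, at 0.47 ± 0.07. Its groups were separate as well; 8.56% of its exon bases overlap Sds on the opposite strand, a gene of amino acid breakdown. Several enzymes of sphingolipid breakdown also rose. Glb1, the lysosomal beta-galactosidase, was at 0.50 ± 0.09 and Asah1, acid ceramidase, at 0.42 ± 0.10. Arsa, which removes sulfate from sulfatide, was at 0.39 ± 0.10, and Gm2a, the activator that presents GM2 ganglioside, at 0.39 ± 0.10. Gla, the alpha-galactosidase lacking in Fabry disease, was at 0.30 ± 0.09 and Hexa, a subunit of beta-hexosaminidase, at 0.27 ± 0.09. Galc, which removes galactose from galactosylceramide, and Neu1, a sialidase, were both at 0.22 ± 0.07. Of the exon bases, 19.8% in Arsa and 8.48% in Galc overlap a gene on the opposite strand. In Glb1 6.89% overlap Tmppe on the same strand.

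These small rises were the least secure calls of the group. Hexa lost its call without any library but KC_Epo 1 in turn, with adjusted p up to 0.117, and Galc, Gla and Neu1 did so without KC_EV 2, KC_EV 3, KC_Epo 2 or KC_Epo 3, with adjusted p up to 0.124. All 4 also lost it with library sizes alone and with upper-quartile factors. Gm2a lost it without KC_EV 2 or KC_Epo 3 (adjusted p = 0.0504 and 0.0576), and Gm2a and Arsa with library sizes alone (adjusted p = 0.0687 and 0.0755). Smpd1, acid sphingomyelinase, at 0.21 ± 0.12, Npc2, which hands cholesterol to the Npc1 protein, at 0.19 ± 0.09, and Ppt1, a thioesterase of fatty-acylated proteins, at -0.08 ± 0.09, did not pass. Npc2 passed without KC_Epo 1 (0.28, adjusted p = 0.00763), and Ppt1 passed as lower with library sizes alone (-0.24, adjusted p = 0.0472). Npc1 and Npc2, which act in sequence on the same cholesterol, thus stood at 1.84-fold and 1.14-fold; the difference between them was not tested.

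Of the 8 genes for glycosaminoglycan breakdown, 5 rose and 0 fell. Hgsnat, the membrane enzyme that acetylates heparan sulfate, had the smallest adjusted p of all 48 members. It was at 126, 124 and 121 CPM across KC_EV and 205, 231 and 226 CPM across KC_Epo, at 0.84 ± 0.07 (SE, edgeR adjusted p = 5.72e-06). Gusb, beta-glucuronidase, was at 145, 145 and 147 CPM across KC_EV and 185, 194 and 189 CPM across KC_Epo, at 0.38 ± 0.06. The libraries of each group were tightly placed for both genes.

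Idua, alpha-iduronidase, was at 60.7, 56.8 and 60.9 CPM across KC_EV and 81.7, 79.5 and 78.1 CPM across KC_Epo, at 0.42 ± 0.07 (edgeR adjusted p = 0.000753). Here KC_Epo 1 was the highest library rather than the lowest. Naglu and Sgsh, an alpha-N-acetylglucosaminidase and a sulfamidase of heparan sulfate, rose by 0.52 ± 0.10 and 0.48 ± 0.09; 21.9% of the exon bases of Sgsh overlap Card14 on the opposite strand. The sulfatases Ids, Galns and Arsb did not pass, at 0.14 ± 0.09, 0.10 ± 0.17 and -0.18 ± 0.17. Arsb and Galns were among the lowest members, with means of 11.3 and 14.1 CPM across KC_EV, and 48.2% of the exon bases of Arsb overlap a noncoding gene on the opposite strand.

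All 5 genes for glycogen and glycoprotein breakdown rose. Gaa, the acid glucosidase that degrades glycogen, was at 85.1, 98.3 and 105 CPM across KC_EV and 151, 172 and 162 CPM across KC_Epo, at 0.75 ± 0.09 (SE, edgeR adjusted p = 6.74e-05). Man2b1, a lysosomal alpha-mannosidase, was at 1129, 1153 and 1186 CPM across KC_EV and 1515, 1820 and 1681 CPM across KC_Epo, at 0.53 ± 0.08. Manba, the beta-mannosidase, was at 45.9, 50.5 and 51.0 CPM across KC_EV and 60.5, 64.7 and 59.9 CPM across KC_Epo, at 0.33 ± 0.08. No KC_Epo library of these genes overlapped a KC_EV library. Aga, which splits the sugar from asparagine, was at 0.40 ± 0.12 and Fuca1, a fucosidase, at 0.35 ± 0.09. Manba, Fuca1 and Aga lost their calls with library sizes alone (adjusted p = 0.0995, 0.0978 and 0.137). Aga also lost it with upper-quartile factors (adjusted p = 0.0568) and without KC_EV 2, KC_EV 3, KC_Epo 2 or KC_Epo 3 (adjusted p up to 0.117).

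The remaining luminal proteins, 4 in number, all rose. Pld3, a single-stranded nucleic acid exonuclease of the lysosome, was at 217, 216 and 220.4 CPM across KC_EV and 400.1, 557 and 466 CPM across KC_Epo. It rose 2.18-fold, at 1.12 ± 0.11 (SE, edgeR adjusted p = 2.09e-05), from KC_EV libraries that were nearly equal. Tpp1, a tripeptidyl peptidase, was at 300.2, 299 and 292 CPM across KC_EV and 474, 487 and 457 CPM across KC_Epo, at 0.67 ± 0.07.

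Grn, progranulin, a secreted and lysosomal protein that supports hydrolase function, was at 2447, 2377 and 2514 CPM across KC_EV and 3187, 4182 and 3763 CPM across KC_Epo. The groups were separate, at 0.60 ± 0.10 (edgeR adjusted p = 0.000709). Lgmn, legumain, an asparagine-specific protease that matures cathepsins, rose less, at 0.33 ± 0.09 (adjusted p = 0.0155). Its call was lost without KC_EV 2, KC_EV 3 or KC_Epo 3 (adjusted p = 0.0798, 0.0562 and 0.0659) and with library sizes alone (0.17, adjusted p = 0.117).

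Of the 4 sorting genes 2 rose and 0 fell. Sort1, sortilin, a receptor that carries prosaposin, progranulin and other cargo between the Golgi, the surface and endosomes, was at 9.99, 16.7 and 17.5 CPM across KC_EV and 33.4, 39.2 and 36.9 CPM across KC_Epo. Its rise of 2.48-fold, at 1.31 ± 0.20 (SE, edgeR adjusted p = 0.00205), was the largest of the 48, although KC_EV 1 was low against the other two. Igf2r, the cation-independent mannose 6-phosphate receptor, was at 41.8, 43.1 and 43.6 CPM across KC_EV and 70.3, 61.6 and 63.5 CPM across KC_Epo, at 0.60 ± 0.08 (adjusted p = 0.000129). M6pr, the smaller cation-dependent receptor for the same tag, did not pass, at 0.08 ± 0.08 (adjusted p = 0.459); it shares 97.8% identity over 834 bases with a processed pseudogene, M6pr-ps. Gnptab, which encodes subunits of the enzyme that starts the mannose 6-phosphate tag, was at 53.9 ± 2.51 CPM across KC_EV and 54.0 ± 7.48 CPM across KC_Epo (SD, n = 3) and did not pass (adjusted p = 0.983).

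Of the 3 transcription factors of the lysosomal programme, 2 rose and 0 fell. Mitf was at 37.5, 30.2 and 31.8 CPM across KC_EV and 47.1, 49.2 and 53.3 CPM across KC_Epo, at 0.59 ± 0.10 (SE, edgeR adjusted p = 0.000739). Tfeb was at 45.9, 53.0 and 58.8 CPM across KC_EV and 65.6, 69.2 and 67.5 CPM across KC_Epo, at 0.36 ± 0.09 (adjusted p = 0.0104), and lost its call with library sizes alone (0.20, adjusted p = 0.105). Tfe3 was at 179, 171 and 181 CPM across KC_EV and 175, 193 and 175 CPM across KC_Epo. Its groups overlapped, and it did not pass at 0.04 ± 0.07 (adjusted p = 0.71). The activity of these factors is set largely by phosphorylation and entry into the nucleus, which messenger RNA does not show. Tfec, the remaining member of the family and a gene of macrophages, rose from 102 ± 4.66 to 147 ± 3.24 CPM (SD, n = 3), at 0.52 ± 0.07 (adjusted p = 0.000133).

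**Figure D3:**
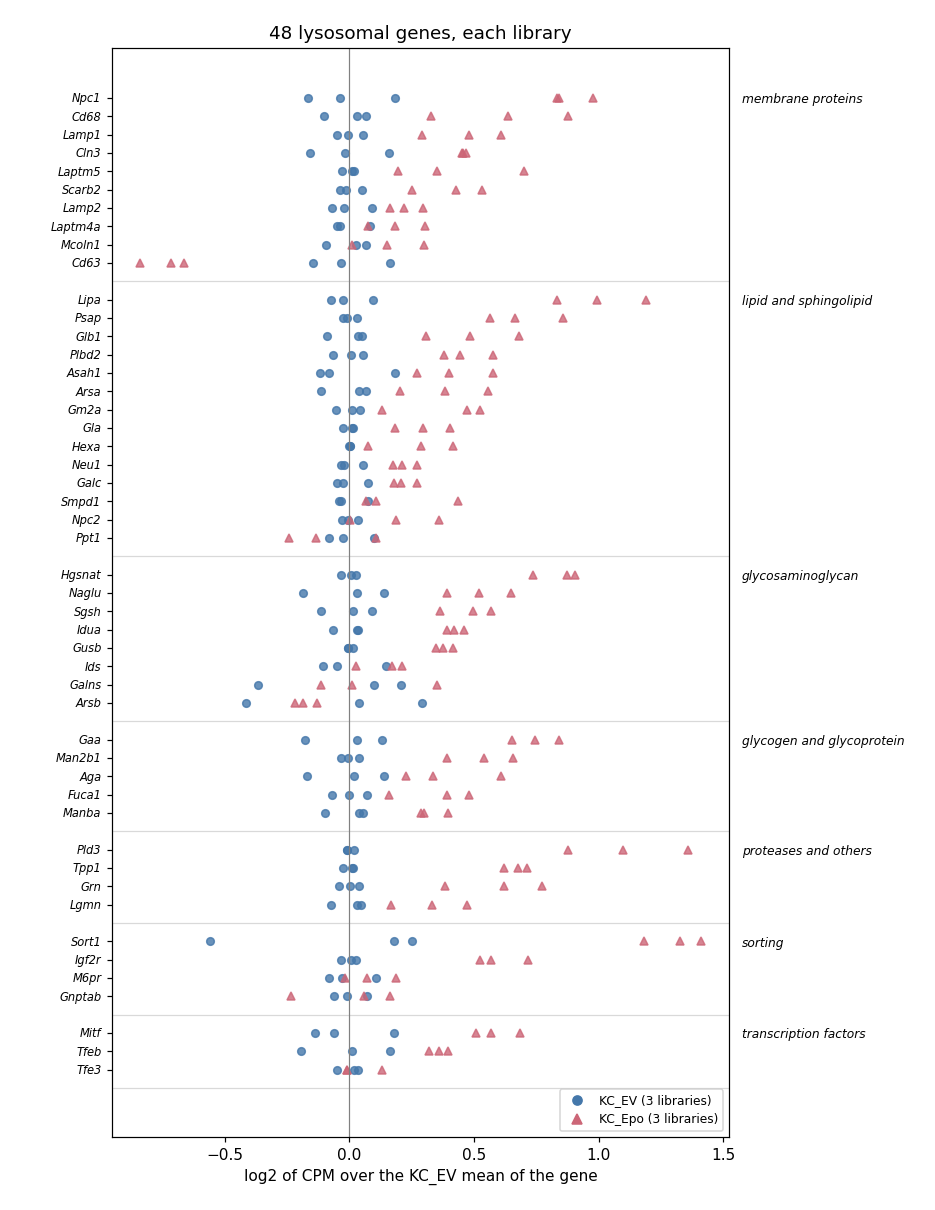
Level of each of the 48 lysosomal genes in every library, as log2 of CPM over the mean of the 3 KC_EV libraries of that gene (x axis), with genes grouped by role (y axis), KC_EV as blue circles and KC_Epo as red triangles. For 37 genes the groups do not overlap, Cd63 being the gene with KC_Epo on the left, and Sort1 has 1 low KC_EV library.

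Within KC_Epo the libraries followed a common order. KC_Epo 2 was the highest library for 40 of 48 members and KC_Epo 1 the lowest for 39, whereas over all tested genes these shares were 37.0% and 38.7%. The ratio of KC_Epo 2 to KC_Epo 1 had a median of 1.17 over the members and 0.998 over all tested genes. It was largest for Cd68 at 1.46, Laptm5 at 1.42 and Pld3 at 1.39. It was below 1 for Cd63, Gnptab, Idua, Igf2r, Lamp2 and Npc1. The summed Kupffer cell markers had the same order, at 50587, 58318 and 53609 CPM across KC_Epo 1 to 3, and the hepatocyte markers the opposite order. In KC_EV the lowest was KC_EV 1 for 20 members, KC_EV 2 for 17 and KC_EV 3 for 11. Of all tested genes 41, 30.8 and 28.2% were lowest in these libraries. The highest was KC_EV 1 for 20 members, KC_EV 2 for 5 and KC_EV 3 for 23, where 37.1, 32.1 and 30.9% of all tested genes were highest in these libraries.

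Set against the sum of the 12 Kupffer cell markers, the lysosomal genes as a whole did not stand higher in KC_Epo. The members' summed level was 49.8, 52.6 and 51.3% of the summed Kupffer cell markers in the KC_EV libraries, and 48.4, 51.9 and 50.6% in those of KC_Epo, so that the groups overlapped. The marker sum itself rose 1.43-fold and the member sum 1.41-fold. Divided in this way, 8 members were still higher in every KC_Epo library than in every KC_EV library, where 3.71% of all tested genes were. These were Npc1, Lipa, Psap, Hgsnat, Gaa, Tpp1, Pld3 and Sort1. On the same scale 19 members were lower and 21 overlapped, where 71.2% of all tested genes were lower. The median of this ratio fell by 0.13 on the log2 scale for the members and by 0.52 for all tested genes. These ratios hold for this sum only, because the markers did not move together. Its largest parts, Clec4f, Cd5l and Marco, rose from means of 6400, 6938 and 5011 CPM in KC_EV to 11032, 9824 and 9122 CPM in KC_Epo. Timd4 and C1qa did not pass, at 0.16 ± 0.08 and 0.27 ± 0.12 (SE), and Adgre1 and Lyz2 were lower. Ratios to single markers were not tested. The part of a changed share of Kupffer cells in the member values was not tested either.

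**Figure D4:**
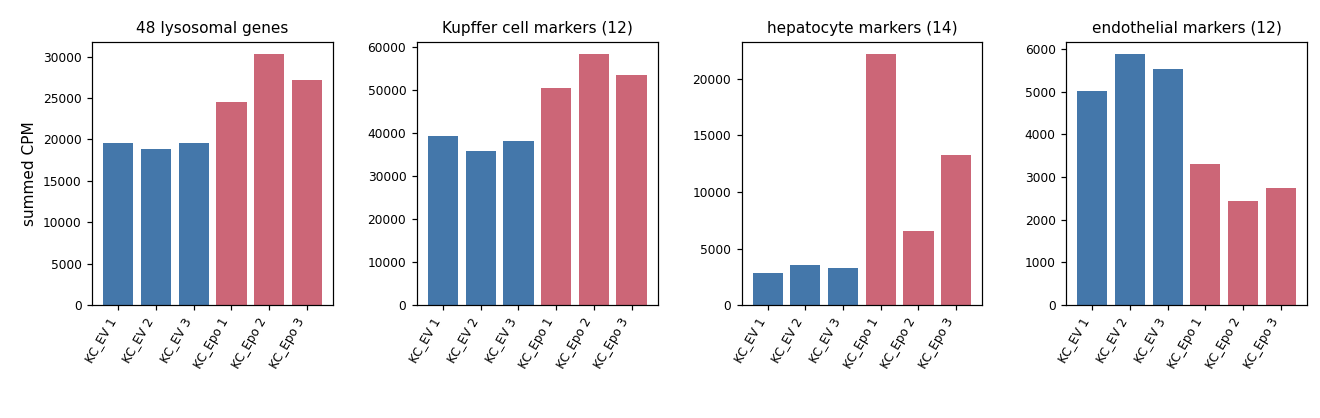
Summed CPM in each of the 6 libraries (x axis) of the 48 lysosomal genes, 12 Kupffer cell markers, 14 hepatocyte markers and 12 sinusoidal endothelial markers (y axis, 1 scale per panel), KC_EV in blue and KC_Epo in red. The lysosomal and Kupffer cell sums are highest in KC_Epo 2, at 30265 and 58318 CPM, while the hepatocyte sum is highest in KC_Epo 1 at 22149 CPM.

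Higher calls outnumbered lower calls in all 7 lists of other lysosomal, autophagy and sorting genes, to be read against the 16.9% higher and 15.4% lower of all genes. The share called in either direction was 60 to 69.2% in the lists of other hydrolases, other membrane proteins and cathepsins. It was 44.4% for the V-ATPase, 46.2% for autophagy genes, 38.1% for other sorting genes and 30.4% for genes that control TFEB and TFE3, where all genes reached 32.3%. Of 24 other lysosomal hydrolases tested, 14 rose and 2 fell, with a median log2 fold change of 0.38. Creg1, a secreted lysosomal glycoprotein, rose by 1.08 ± 0.08, Dnase2a, the acid nuclease that digests the DNA of engulfed red cell nuclei, by 0.92 ± 0.07 and Pla2g15, a lysosomal phospholipase, by 0.89 ± 0.10. Hyal2, a hyaluronidase, and Rnaset2b, a ribonuclease with a close copy in Rnaset2a, were lower at -0.47 ± 0.09 and -0.61 ± 0.14. Rnaset2a itself did not pass, at 0.07 ± 0.14 (edgeR adjusted p = 0.709). How reads were shared between these copies was not tested, so the value of Rnaset2b alone is uncertain. Of 25 other lysosomal membrane proteins 15 rose and 0 fell, among them the heme transporter Slc48a1 at 1.57 ± 0.09, Sidt2, a putative nucleic acid transporter, at 1.09 ± 0.09 and the sialomucin Cd164 at 0.84 ± 0.08.

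Of 13 cathepsins, proteases of the lysosome, 8 rose and 1 fell, with Ctsd at 1.34 ± 0.10, Ctsb at 1.02 ± 0.10 and Ctsl at 0.62 ± 0.07. The member that fell was Ctse, at 1.81 CPM across KC_EV and 0.612 CPM across KC_Epo, whose call was lost without KC_EV 1, KC_EV 2, KC_EV 3 or KC_Epo 3 (adjusted p = 0.0512, 0.0802, 0.115 and 0.103). The V-ATPase, the proton pump that acidifies the lysosome, had 7 of 18 subunits higher and 1 lower, with a median of 0.22. Atp6v1g1 was at 0.65 ± 0.08, Atp6v0a1 at 0.60 ± 0.08 and Atp6v1b2 at 0.53 ± 0.08. Atp6v0d2, the subunit that was lower, stood at 3.00 and 1.52 CPM and lost its call without any library but KC_EV 3 in turn, with adjusted p up to 0.256.

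Of 26 autophagy genes 12 rose and 0 fell, with a median of 0.18. Sqstm1, the cargo receptor p62, was at 0.48 ± 0.07, Vps33a, of the complex that fuses vesicles with the lysosome, at 0.47 ± 0.07 and Atg7, an enzyme of autophagosome formation, at 0.60 ± 0.10. Among 23 genes that control TFEB and TFE3, 6 rose and 1 fell, with a median of 0.17, a share called no larger than that of all genes. Besides Tfec, the GTPase Rragc was at 0.61 ± 0.08 and the kinase Gsk3b at 0.49 ± 0.07, while Zkscan3, described as a repressor of lysosomal genes, was at -0.32 ± 0.07 (edgeR adjusted p = 0.00556). Of 21 other sorting genes 7 rose and 1 fell, with a median of 0.19; Cln8, which ferries hydrolases out of the endoplasmic reticulum, was at 0.58 ± 0.07 and Lrp1, an endocytic receptor, at 0.53 ± 0.08. Sorl1, a sorting receptor related to sortilin, went the other way from Sort1, from 30.1 ± 6.31 to 15.7 ± 0.903 CPM (SD, n = 3), at -0.93 ± 0.15 (adjusted p = 0.000641).

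**Figure D5:**
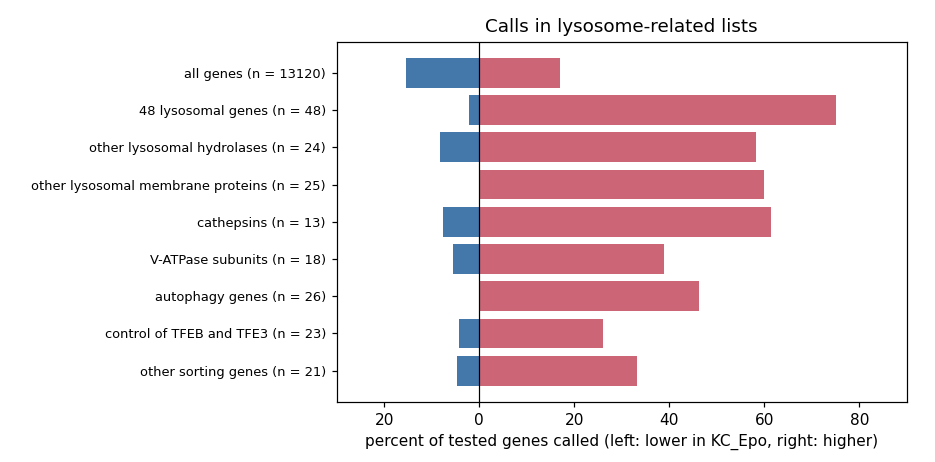
Percent of tested genes called at an adjusted p of 0.05 by the edgeR quasi-likelihood test (x axis, lower in KC_Epo to the left and higher to the right) for all genes, the 48 lysosomal genes and 7 related lists (y axis, with the number of genes tested). The 48 lysosomal genes reach 75.0% higher and 2.08% lower, the other lists 26.1 to 61.5% higher, and all genes 16.9% higher and 15.4% lower.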

How the data were processed

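Sorted Kupffer cells of 3 KC_EV and 3 KC_Epo libraries were compared. The kit was TruSeq stranded mRNA with polyA selection, per the labels' protocols. Listed by the submitters' processing notes, without role or order, are STAR 2.7.3a, HTSeq 0.11.2, Bowtie2 2.5.1, FastQC 0.11.8 and the build GRCm39. How reads were assigned to genes, by strand or not, is not given in the sources used here. Whole-number read counts per gene symbol, not normalized, are what the authors deposited. Of the symbols 12 stood on 2 rows, and of these the row of higher total was used. Tests used edgeR 4.0.16 under R 4.3.3 (TMM, filterByExpr, robust quasi-likelihood F test, two-sided, Benjamini-Hochberg over 13120 genes, threshold 0.05). The procedure was run on simulated data with far fewer changed genes than here. It called 0.117% of unchanged genes, 0% of 48 genes set to 1.2-fold, 46% of 50 set to 1.5-fold and 74% of 50 set to 2-fold. A gene that did not pass may thus still have a small change. Standard errors come from the F statistic. The members and lists were chosen with earlier results of these data known. Levels in every library are given for the members with the smallest adjusted p per role, at most 3, for every lower call and for Lamp1, Lamp2, Cd68, Tfeb, Tfe3 and Mitf, and other members are given by their fold change; of each other list up to 3 genes with the smallest adjusted p are named. The genes of those lists that fell, Rnaset2a and the Kupffer cell markers named were picked after their values were seen. Alternatives were other size factors, other filters, a replicate block, DESeq2 1.42.0, limma-voom (limma 3.58.1) and each library left out. No library was a copy of another, the lowest chi-square per gene within a group being 6.15. Exon overlap and near copies were read from GENCODE M21 (GRCm38), another build than the authors', and promoters from RefSeq by symbol.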

Additional observations from a re-analysis of the deposited data

How the results depend on the processing

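The direction of the members' median held in all 16 alternatives. With library sizes alone it was 0.23, 23 members were higher and 2 lower, and over all genes 1193 were higher and 3616 lower; the median of all genes moved to -0.16, and 39 of 48 members were above 0 rather than 45. Among calls over all genes 52.4% were higher; this became 24.8% with library sizes alone and 40.6% under upper-quartile scaling, which left 30 members higher and 1 lower. RLE factors, both other filters, limma-voom and library sizes without hepatocyte, erythroid and endothelial markers changed no member's call, and DESeq2 added Laptm4a (0.19, adjusted p = 0.0494). Leaving out each library in turn gave 27 to 39 members higher, 1 lower in each case, 28 to 40 past the threshold in all, and a median of 0.33 to 0.47; over all genes it gave 2728 to 4557 calls, with 1477 to 2410 higher and 1251 to 2147 lower. The lowest of these counts over all genes came without KC_Epo 3 and the lowest member count without KC_EV 2, where 1 library fewer was fitted. Leaving out KC_EV 1 and KC_Epo 1 together, chosen after seeing the data, gave 39 members higher and 1 lower, the added ones being Laptm4a (0.28, adjusted p = 0.00278), Npc2 (0.28, adjusted p = 0.00458) and M6pr (0.18, adjusted p = 0.0341). The replicate block gave 3358 calls over all genes and left 30 members higher and 1 lower, without Lamp2, Galc, Hexa, Neu1, Aga and Lgmn. Deviations from the group means of same-numbered libraries correlated at -0.11, -0.15 and -0.04. With 3 libraries a group such deviations are tied to each other, so these values cannot decide whether the numbers pair the libraries. Standard errors were largest for Sort1, at 0.20, and for Arsb and Galns, at 0.17, against 0.06 for Gusb. Across KC_EV the SD of Sort1, Arsb and Galns was 28.0, 23.8 and 19.9% of the mean, against 0.896% for Gusb. The parts of low counts and of spread between libraries in these errors were not tested.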
